A study of Mus musculus with 22 samples.

Results

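The genes described here encode the Toll-like receptors (TLRs) of the cell surface and the proteins that work beside them: Tlr1, Tlr2, Tlr4, Tlr5, Tlr6, Cd14, Ly96, Cd180 and Ly86. These 9 genes were chosen by name from the 34047 genes of the RNA-seq count table, and all 9 passed the filter on low counts in both tissues. At their loci, 118 of the 177956 ATAC-seq windows, each of 150 bases around a peak summit, had a member as the closest gene, and 107 of the 118 were tested. The study sorted conventional dendritic cells (cDCs) from spleen and mesenteric lymph node (MLN) of Tbx21 RFP-cre mice, which carry a reporter allele of Tbx21 so that red fluorescent protein (RFP) marks expression of its product, the transcription factor T-bet. Mice were male and female, and 6 to 10 weeks old, and every subset came from animals with the same allele. cDC1s were CD11b-XCR1+, T-bet+ cDC2s CD11b+XCR1-RFP+ and T-bet- cDC2s CD11b+XCR1-RFP-, all within a gate without CD64, Ly6C or lineage markers and with CD11c and MHCII. RNA-seq held 3 spleen libraries per subset, 3 MLN cDC1 libraries and 2 MLN libraries of each cDC2 subset, each made from the pooled cells of 2 mice. ATAC-seq held 2 spleen libraries per subset, of 50000 cells each. Reads on genes numbered 20993220 to 29006549 per RNA library, and reads in windows 7270164 to 10081555 per ATAC library. The p-values below measure the spread between these libraries, whose RNA-seq experiments were each carried out once.

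TLRs are receptors of microbial molecules that signal through the adaptors MyD88 and TRIF to NF-kB and interferon regulatory factors. TLR2 pairs with TLR1 or TLR6 to bind lipoproteins, TLR5 binds flagellin, and TLR4 binds lipopolysaccharide (LPS) together with MD-2, the product of Ly96, after CD14 has handed the LPS over. RP105, the product of Cd180, resembles TLR4 without its signalling domain and sits at the surface bound to MD-1, the product of Ly86. Dendritic cells use these receptors to sense microbes before they present antigen to T cells.

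The labels were set against marker genes. Tbx21 lay at 423 to 612 normalized counts in spleen T-bet+ cDC2s and at 7.11 to 58.5 in spleen T-bet- cDC2s, and at 72.1 to 177 against 13.2 to 22.6 in MLN. The summed level of 5 cDC1 markers was 110689 to 144723 normalized counts in spleen cDC1s and 3516 to 14318 in spleen cDC2s. Replicate 2 of the MLN T-bet+ cDC2s carried 837 normalized counts of Xcr1 and replicate 1 carried 128. The sum of 10 monocyte and macrophage markers was 2525 to 4907 in spleen cDC1s, 10578 to 12183 in spleen T-bet+ cDC2s and 18569 to 26702 in spleen T-bet- cDC2s. In MLN it was 2077 to 5150, 8118 to 9679 and 18076 to 27648 in the same order. Of these markers Vcan was at 0 in every spleen cDC1 library and F13a1 at 0 in both MLN T-bet+ cDC2 libraries. Fcgr1, which encodes the CD64 excluded by the gate, lay at 132 to 195 normalized counts in spleen T-bet- cDC2s and at 10.1 to 20.5 in spleen T-bet+ cDC2s. The sum of 6 neutrophil markers was 1614 to 2684 in spleen cDC2s, 407 to 779 in spleen cDC1s and 0 to 341 in all MLN libraries. The sum of 7 B cell markers was 1024 to 1930 in spleen cDC1s and 1853 to 2946 in spleen cDC2s. The libraries also differed in how their levels moved with GC content, taken at the most GC-rich stretch of a transcript. On this measure all 3 spleen T-bet+ cDC2 libraries fell in one class while 2 of the 3 spleen T-bet- cDC2 libraries fell in the other. In these sorted bulk samples, fewer cells of a type and less RNA per cell cannot be told apart.

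The sequences below are the accessible windows that differed between subsets at 5 of the loci and the reference promoters of 2 members. Capitals mark matches, on either strand, to motif letters searched in every sequence. The windows are shown because each held a called difference in accessibility, and they are given on the plus strand of mm10. The window at chr1:182937707-182937856 lies between genes, 17006 bases before the start of Tlr5. The window at chr3:83867116-83867265 lies between genes, 25424 bases before the start of Tlr2. The window at chr5:64887181-64887330 lies between genes, 46307 bases past the start of Tlr1. The window at chr13:102722456-102722605 is intronic in Cd180, and the window at chr1:16694177-16694326 is intronic in Ly96.
Tlr5 window: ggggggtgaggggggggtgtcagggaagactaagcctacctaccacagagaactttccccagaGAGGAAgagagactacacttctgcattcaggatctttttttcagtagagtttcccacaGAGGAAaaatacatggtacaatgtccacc
Tlr2 window: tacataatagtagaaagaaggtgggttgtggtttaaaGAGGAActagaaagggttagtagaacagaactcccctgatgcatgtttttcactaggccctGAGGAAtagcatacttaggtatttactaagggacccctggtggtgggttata
Tlr1 window: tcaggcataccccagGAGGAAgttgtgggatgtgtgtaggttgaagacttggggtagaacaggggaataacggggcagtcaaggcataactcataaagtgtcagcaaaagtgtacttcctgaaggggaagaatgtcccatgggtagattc
Cd180 window: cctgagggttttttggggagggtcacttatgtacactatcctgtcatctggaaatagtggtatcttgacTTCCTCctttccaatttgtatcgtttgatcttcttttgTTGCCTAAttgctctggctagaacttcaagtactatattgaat
Ly96 window: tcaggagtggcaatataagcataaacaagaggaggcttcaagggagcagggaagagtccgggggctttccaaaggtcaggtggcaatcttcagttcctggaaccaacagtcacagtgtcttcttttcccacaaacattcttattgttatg

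Promoters were taken from RefSeq (GRCm38.p6), each 250 bases before to 50 bases after a gene's start, on the strand of the gene. The table held 9 promoters for 6 members, and Tlr4, Cd14 and Ly96 had no entry. The Tlr2 promoter (chr3:83841559-83841858, minus strand) and the Tlr5 promoter (chr1:182954538-182954837, plus strand) are printed because the RNA of both genes was called higher in both spleen cDC2 subsets than in cDC1s with no called promoter window at Tlr2 and 2 of 9 called at Tlr5 in T-bet+ cDC2s against cDC1s.
Tlr2 promoter: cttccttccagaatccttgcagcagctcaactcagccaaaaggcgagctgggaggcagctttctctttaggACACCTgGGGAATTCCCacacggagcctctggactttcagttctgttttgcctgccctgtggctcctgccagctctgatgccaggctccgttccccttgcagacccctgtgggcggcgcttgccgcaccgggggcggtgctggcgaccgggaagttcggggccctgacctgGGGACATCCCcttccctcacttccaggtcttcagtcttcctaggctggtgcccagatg
Tlr5 promoter: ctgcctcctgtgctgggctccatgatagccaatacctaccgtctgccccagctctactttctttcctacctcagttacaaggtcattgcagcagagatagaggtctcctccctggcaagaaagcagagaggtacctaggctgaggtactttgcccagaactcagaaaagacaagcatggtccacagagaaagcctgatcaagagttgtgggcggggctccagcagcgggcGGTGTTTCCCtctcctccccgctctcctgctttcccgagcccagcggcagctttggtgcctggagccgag

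The motif letters were GAGGAA (PU.1 and other ETS factors), AGGTGT (T-box factors such as T-bet), TTGCNNAA (C/EBP), GAAANNGAAA (interferon regulatory factors), GGGANNNNCC (NF-kB) and TGANTCA (AP-1), where N is any base. GAGGAA occurred at 2 places in the Tlr5 window, at 2 in the Tlr2 window, and at 1 each in the Tlr1 and Cd180 windows. The Cd180 window also held 1 C/EBP match, and the Ly96 window held none of the 6 motifs. The Tlr2 promoter held 1 T-box match and 2 NF-kB matches, and the Tlr5 promoter 1 NF-kB match. GAGGAA is common, and 24.7% of all 177956 windows and 28.3% of all 32851 promoters contained it. The shares of windows and promoters were 8.28% and 13.7% for the T-box letters, 5.89% and 10.8% for C/EBP, and 9.68% and 20.7% for NF-kB. They were 2.39% and 3.44% for the interferon regulatory factor letters and 7.9% and 7.81% for AP-1. A match describes letters and does not show that a factor binds.

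The first comparison asked how the surface receptors differ between the cDC2 subsets and cDC1s. In spleen, cDC2s carried far more Tlr1, Tlr2 and Tlr5 RNA than cDC1s, and Ly86 was higher by a smaller factor. Cd14 split the cDC2s, since it was higher than in cDC1s in T-bet- cDC2s and lower in T-bet+ cDC2s. Of the 9 members, 5 differed between spleen T-bet+ cDC2s and cDC1s, 4 higher and 1 lower, where 18.2% of the 14377 genes tested differed, 9.97% higher and 8.20% lower. Between spleen T-bet- cDC2s and cDC1s, 6 members differed, 5 higher and 1 lower, against 15.9% of genes, 9.65% higher and 6.20% lower. A call was an adjusted p under 0.05 from edgeR's quasi-likelihood test with Benjamini-Hochberg adjustment over all genes tested. The median log2 fold change of the members was 0.68 for T-bet+ cDC2s and 1.41 for T-bet- cDC2s, and that of all genes 0.03 and -0.01. Both comparisons share the cDC1 libraries.

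Tlr2 was the receptor with the highest level per length among the 5 TLR genes in all 6 spleen cDC2 libraries. Normalized counts of Tlr2 were 1372, 1781 and 1855 in spleen cDC1s, 5481, 5989 and 3465 in T-bet+ cDC2s, and 13313, 8901 and 7067 in T-bet- cDC2s. No library of one subset overlapped another subset. Against cDC1s the log2 fold change was 1.58 (SE 0.30, adjusted p = 0.00497) in T-bet+ cDC2s and 2.55 (SE 0.31, adjusted p = 0.000434) in T-bet- cDC2s. Between the cDC2 subsets it was -0.97 (SE 0.29) with an adjusted p of 0.0979, which missed the threshold.

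Tlr1, whose product joins TLR2 on triacylated lipoproteins, separated cDC2s from cDC1s more widely. It had 105, 161 and 188 normalized counts in spleen cDC1s, 1689, 1886 and 1925 in T-bet+ cDC2s, and 3467, 1953 and 3053 in T-bet- cDC2s. Every cDC2 library lay above every cDC1 library. Tlr1 was 12.2-fold higher in T-bet+ cDC2s (log2 3.60, SE 0.31, adjusted p = 5.5e-05) and 18.7-fold higher in T-bet- cDC2s (log2 4.22, SE 0.32, adjusted p = 2.8e-05) than in cDC1s. Tlr6, the partner of TLR2 on diacylated lipoproteins and the neighbour of Tlr1 on chromosome 5, had 89.7, 120 and 247 normalized counts in spleen cDC1s, 225, 172 and 332 in T-bet+ cDC2s and 460, 306 and 449 in T-bet- cDC2s. T-bet- cDC2s lay above cDC1s without overlap, but the difference did not pass the test (log2 1.41, SE 0.43, adjusted p = 0.0521). Tlr1 and Tlr6 are close relatives, and reads that fit both were dropped by unique alignment, so their levels are less certain than those of the other genes.

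Tlr5 was almost silent in cDC1s. Spleen cDC1 libraries held 7, 0 and 11 reads of Tlr5, which are 6.97, 0 and 13.1 normalized counts. T-bet+ cDC2 libraries held 525, 495 and 584 normalized counts, and T-bet- cDC2 libraries 944, 742 and 643. All cDC2 libraries were far above all cDC1 libraries, and the T-bet- cDC2 libraries were above the T-bet+ cDC2 libraries without passing the test (T-bet+ minus T-bet- log2 -0.53, SE 0.55, adjusted p = 0.654). The fitted log2 fold change against cDC1s was 6.33 (SE 0.73, adjusted p = 0.000318) in T-bet+ cDC2s and 6.87 (SE 0.75, adjusted p = 0.000229) in T-bet- cDC2s. With so few cDC1 reads, the size of this fold is loosely set. Its interval, a normal approximation from the SE, ran from 4.90 to 7.77 in T-bet+ and from 5.41 to 8.33 in T-bet- cDC2s. With so few libraries such an interval tends to be too narrow.

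**Figure D1:**
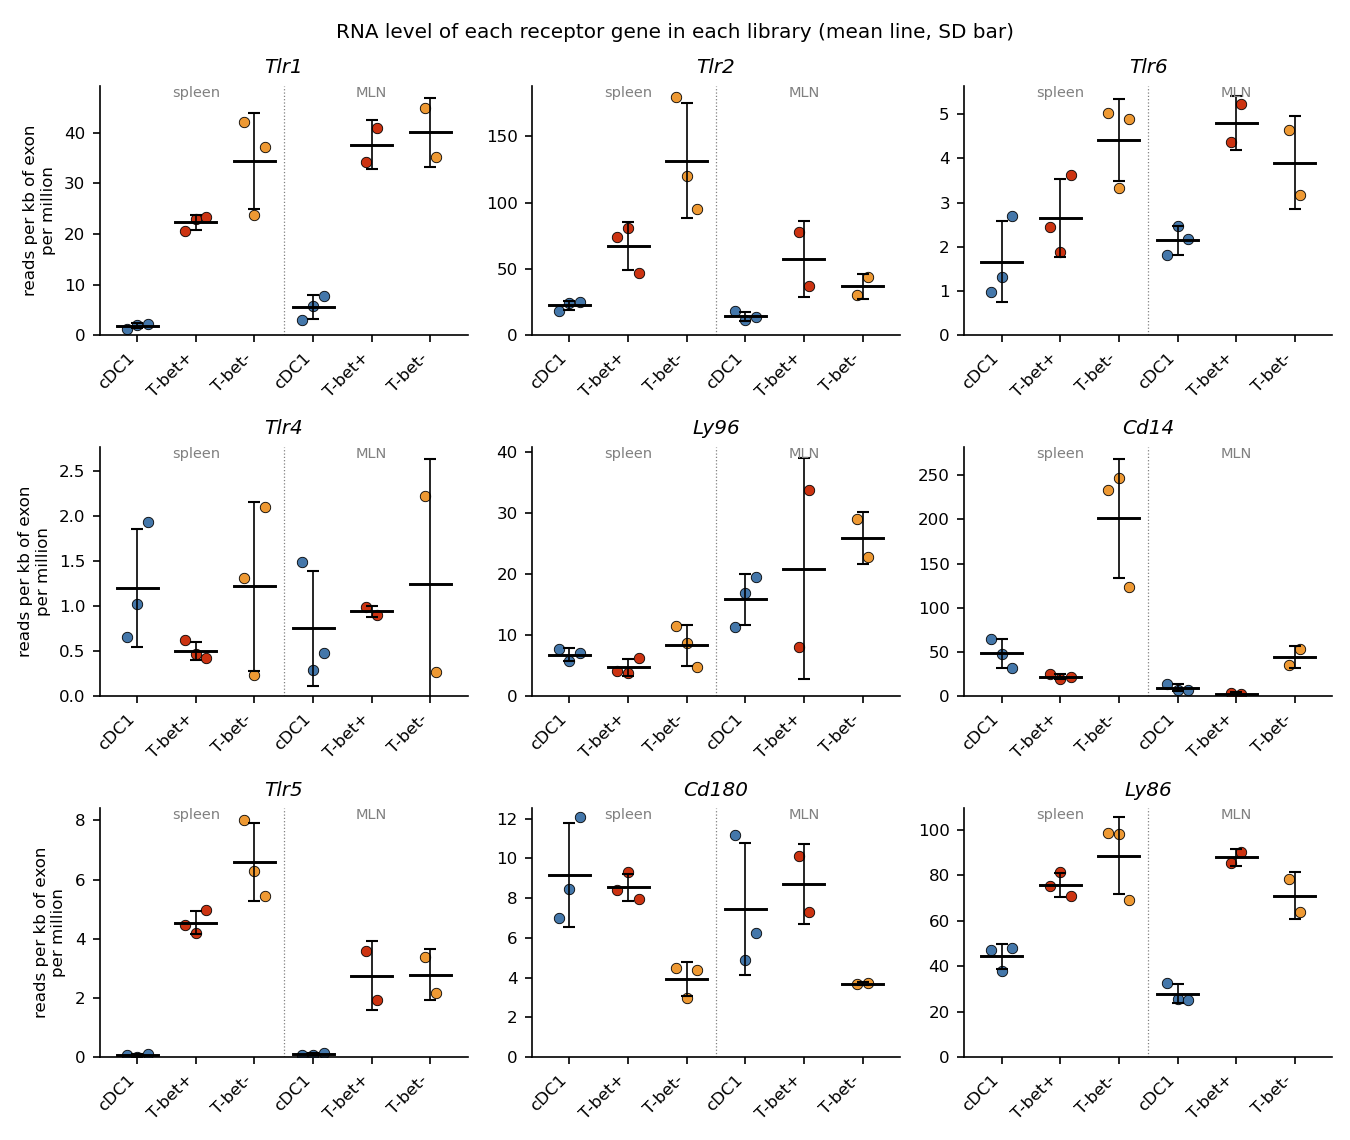
RNA level of each of the 9 genes in every library, in RPKM (reads scaled to exon length and library size), with spleen subsets left and MLN subsets right of the dotted line. Points are libraries, lines means and bars SDs (3 libraries, or 2 for MLN cDC2s). Tlr1, Tlr2 and Tlr5 are higher in every cDC2 library than in every cDC1 library of the same tissue, and Cd14 is highest in spleen T-bet- cDC2s (124 to 247 RPKM).

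Of the LPS receptor complex, Tlr4 itself was low and variable, and of its 3 genes Cd14 alone passed the test between spleen subsets. Tlr4 had 89.7, 141 and 264 normalized counts in spleen cDC1s, 84.8, 63.6 and 58.2 in T-bet+ cDC2s, and 180, 32.9 and 288 in T-bet- cDC2s. The subsets overlapped except that each T-bet+ cDC2 library lay below each cDC1 library, and no Tlr4 comparison in either tissue passed the test. Ly96 had 193, 144 and 176 normalized counts in spleen cDC1s, 102, 94.1 and 158 in T-bet+ cDC2s, and 289, 220 and 121 in T-bet- cDC2s. Its ranges overlapped between subsets in each pair, and none of the 3 differences passed the test (adjusted p from 0.284 to 0.655). Per length, Tlr4 was the lowest of the 9 members in spleen T-bet+ cDC2s (0.504 ± 0.103 RPKM, SD, n = 3), and it had the lowest mean in T-bet- cDC2s as well.

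Cd14 had 2772, 2055 and 1370 normalized counts in spleen cDC1s, 1061, 813 and 923 in T-bet+ cDC2s, and 9941, 10511 and 5284 in T-bet- cDC2s. The 3 subsets did not overlap. Cd14 was 4.16-fold higher in T-bet- cDC2s than in cDC1s (log2 2.06, SE 0.33, adjusted p = 0.00252) and 2.21-fold lower in T-bet+ cDC2s than in cDC1s (log2 -1.14, SE 0.33, adjusted p = 0.037). The latter call was lost when cDC1 replicate 1 or 2 or any single T-bet+ cDC2 library was left out, with adjusted p between 0.0724 and 0.126. CD14 is also a marker of monocytes and macrophages, and the summed markers of those cells were highest in T-bet- cDC2s too, where 6 of the 10 were called higher than in cDC1s. Their part in the level of Cd14 was not tested.

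Cd180 and Ly86 encode the 2 chains of one surface complex, and their RNAs moved apart. Cd180 had 774, 935 and 1339 normalized counts in spleen cDC1s, 931, 1030 and 884 in T-bet+ cDC2s, and 498, 329 and 486 in T-bet- cDC2s. T-bet- cDC2s lay below both other subsets without overlap, and cDC1s and T-bet+ cDC2s overlapped. Cd180 was 2.32-fold lower in T-bet- cDC2s than in cDC1s (log2 -1.22, SE 0.28, adjusted p = 0.0148), a call lost without T-bet- cDC2 replicate 2 (adjusted p = 0.0598). Ly86 had 4211, 3394 and 4278 normalized counts in cDC1s, 6739, 7251 and 6317 in T-bet+ cDC2s, and 8803, 8762 and 6185 in T-bet- cDC2s. Both cDC2 subsets lay above cDC1s. On the log2 scale Ly86 was higher by 1.00 in T-bet- cDC2s (SE 0.20, adjusted p = 0.00782) and by 0.78 in T-bet+ cDC2s (SE 0.20, adjusted p = 0.0233). The T-bet+ call missed the threshold in 9 of 18 alternative analyses, among them those without any one of the cDC1 or T-bet+ cDC2 libraries (adjusted p up to 0.134). Cd180 is expressed by B cells as well, and of the 7 B cell markers Ms4a1 was also called lower in spleen T-bet- cDC2s than in cDC1s (log2 -3.42, adjusted p = 0.000615), at 61.6 to 163 against 884 to 1861 normalized counts. Another 2 of the 7 were called higher there, Cd79b (log2 5.06, adjusted p = 2.8e-05) and Blk (log2 1.68, adjusted p = 0.0371). Cd79b lay at 1740 to 2716 against 44.0 to 101 normalized counts, and Blk at 29.6 to 65.7 against 5.95 to 22.9. The part of B cell RNA in the level of Cd180 was not tested. Mast4, on the opposite strand, overlaps Cd180 over 182 exonic bases, and whether the counting used strand is not given in the sources used here.

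The direct comparison of the cDC2 subsets in spleen called 2 of the 9 members, 1 higher and 1 lower in T-bet+ cDC2s, where 5.38% of genes were called, 1.95% higher and 3.44% lower. Cd14 was 9.19-fold lower in the T-bet+ subset (log2 -3.20, SE 0.35, adjusted p = 0.000955). This call held in all 18 alternative analyses, with log2 fold changes of -3.54 to -3.02 when a library was left out and -3.14 with the GC class of the libraries as a term. Of the 10 monocyte and macrophage markers, 5 were also called lower in T-bet+ cDC2s and none higher, and C1qa lay at 279 to 457 against 3348 to 5059 normalized counts. Cd180 was 2.17-fold higher in T-bet+ cDC2s (log2 1.12, SE 0.27, adjusted p = 0.0471), a call at the edge of the threshold that was lost in 12 of 18 alternatives. Without T-bet+ cDC2 replicate 2 its adjusted p was 0.168. Of the 7 B cell markers 2 were called higher in T-bet+ cDC2s as well and 1 lower. Blk lay at 659 to 838 against 29.6 to 65.7 normalized counts (log2 3.99, adjusted p = 0.00151) and Ms4a1 at 562 to 787 against 61.6 to 163 (log2 2.55, adjusted p = 0.00832). Cd79b went the other way, at 500 to 783 against 1740 to 2716 (log2 -1.85, adjusted p = 0.0133). The sum of the 7 markers was 1853 to 2389 in T-bet+ and 1969 to 2946 in T-bet- cDC2s, which overlapped. The part of these markers in the Cd180 difference was not tested. The other 7 members had negative log2 fold changes, from -1.28 for Tlr4 to -0.22 for Ly86, and none passed the test. The median log2 fold change of the members was -0.73 and that of all genes -0.01.

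**Figure D2:**
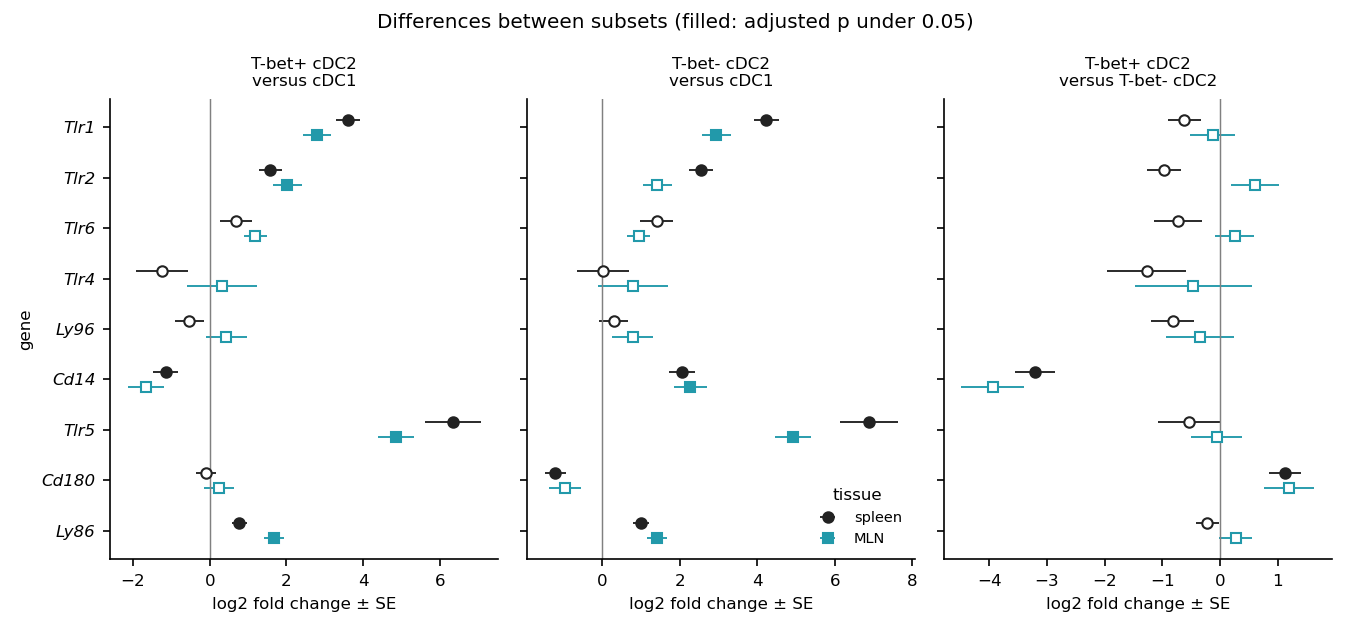
Log2 fold change ± SE of each member in the 3 subset comparisons, with spleen and MLN as separate symbols and filled symbols for an adjusted p under 0.05. Cd14 lies left of 0 in T-bet+ against T-bet- cDC2s in both tissues (-3.20 and -3.94), and Tlr5 has the largest differences from cDC1s (4.86 to 6.87).

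In MLN the comparison of subsets was repeated with fewer libraries. Between T-bet+ cDC2s and cDC1s, 4 members were called, all higher, against 6.22% of the 15298 genes tested, 4.11% higher and 2.11% lower. Between T-bet- cDC2s and cDC1s, 4 members were called, all higher, against 5.79% of genes, 4.34% higher and 1.44% lower. The members' median log2 fold changes were 1.19 and 1.41, and those of all genes -0.00 and 0.01. Tlr1, Tlr5 and Ly86 were called in both, Tlr2 in T-bet+ cDC2s and Cd14 in T-bet- cDC2s.

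Tlr5 in MLN had 8.98, 9.6 and 15.2 normalized counts in cDC1s, 423 and 227 in T-bet+ cDC2s, and 400 and 256 in T-bet- cDC2s. Both cDC2 subsets lay above cDC1s with no overlap, T-bet+ cDC2s by 4.86 on the log2 scale (SE 0.46, adjusted p = 0.00159) and T-bet- cDC2s by 4.92 (SE 0.46, adjusted p = 0.0015). Tlr1 had 252, 473 and 642 normalized counts in MLN cDC1s, 2811 and 3374 in T-bet+ cDC2s, and 3696 and 2900 in T-bet- cDC2s. The cDC2 libraries again lay above all cDC1 libraries, by 2.81 on the log2 scale for T-bet+ cDC2s (SE 0.37, adjusted p = 0.00567) and by 2.94 for T-bet- cDC2s (SE 0.37, adjusted p = 0.00472). The Tlr1 call in T-bet- cDC2s was lost without their replicate 1 (adjusted p = 0.0526). Ly86 had 2916, 2292 and 2244 normalized counts in MLN cDC1s, 7613 and 8068 in T-bet+ cDC2s, and 6990 and 5683 in T-bet- cDC2s. T-bet+ cDC2s exceeded cDC1s by 1.68 on the log2 scale (SE 0.26, adjusted p = 0.0108) and T-bet- cDC2s by 1.41 (SE 0.26, adjusted p = 0.0212), the latter reaching an adjusted p of 0.162 without T-bet- cDC2 replicate 1.

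Tlr2 in MLN had 1332, 850 and 992 normalized counts in cDC1s, 5766 and 2737 in T-bet+ cDC2s, and 2250 and 3228 in T-bet- cDC2s. The cDC2 subsets overlapped each other and lay above cDC1s. T-bet+ cDC2s stood above them by 2.02 on the log2 scale (SE 0.37, adjusted p = 0.0203), which was 1.41 (adjusted p = 0.117) without T-bet+ cDC2 replicate 1. In T-bet- cDC2s it was 1.42 (SE 0.37, adjusted p = 0.0674). Tlr6 had 166, 226 and 199 normalized counts in MLN cDC1s, 400 and 479 in T-bet+ cDC2s, and 426 and 290 in T-bet- cDC2s, with no overlap between cDC1s and cDC2s and adjusted p of 0.0602 and 0.129. Ly96 in MLN T-bet+ cDC2s had 203 and 846 normalized counts, a wider gap than in any other subset, beside 283, 426 and 488 in cDC1s and 727 and 574 in T-bet- cDC2s. The higher value came from replicate 2, the library with more Xcr1, and it lay above the value of every MLN cDC1 library. Tlr4 lay between 36.7 and 304 normalized counts over all 7 MLN libraries, and the subsets overlapped.

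Cd14 kept its order in MLN. It had 590, 294 and 312 normalized counts in cDC1s, 168 and 81.6 in T-bet+ cDC2s, and 1497 and 2254 in T-bet- cDC2s, and the 3 subsets did not overlap. Cd14 was 4.84-fold higher in T-bet- cDC2s than in cDC1s (log2 2.27, SE 0.43, adjusted p = 0.0236), and this call was lost without either T-bet- cDC2 library (adjusted p = 0.103 and 0.157) or cDC1 replicate 2 or 3 (0.0747 and 0.0951). T-bet+ cDC2s were 3.18-fold below cDC1s with an adjusted p of 0.0824. In T-bet+ against T-bet- cDC2s the log2 fold change of Cd14 was -3.94 (SE 0.54, adjusted p = 0.0929). None of the 10 monocyte and macrophage markers was called between these MLN subsets, and 2 of the 10 had the higher mean on the T-bet+ side. C1qa lay at 62 to 470 normalized counts for T-bet+ and at 7286 to 13519 for T-bet- cells (adjusted p = 0.252). Adgre1 went the other way, with means of 6799 and 2189 (log2 1.60, adjusted p = 0.252). The part of these markers in the Cd14 difference was not tested. Cd180 had 1241, 544 and 695 normalized counts in MLN cDC1s, 1123 and 810 in T-bet+ cDC2s, and 406 and 415 in T-bet- cDC2s, the lowest of the 3 subsets without overlap, and its adjusted p between the cDC2 subsets was 0.44.

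No member was called between T-bet+ and T-bet- cDC2s in MLN by edgeR's quasi-likelihood test, and 0% of the 15298 genes were. At an unadjusted p under 0.05 there were 2 members, Cd14 and Cd180, and 1444 genes. DESeq2 called 1 member and 348 genes in this comparison, and the member was Cd14. An interaction test, of whether spleen and MLN differ in the T-bet+ to T-bet- fold change, also called no member, and 1 gene in all, 0.00595% of 16795. At an unadjusted p under 0.05 there was 1 member, Tlr2, and 847 genes. DESeq2 called 43 genes and no member here. The Tlr2 difference was -0.97 in spleen and 0.60 in MLN, and the fit over both tissues put the gap between them at -1.61 (SE 0.52, adjusted p = 0.903).

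Between tissues, spleen cells carried more Cd14 RNA than MLN cells in each subset. The log2 fold change of spleen over MLN was 2.37 (SE 0.39, adjusted p = 0.003) in cDC1s, 2.90 (SE 0.47, adjusted p = 0.00555) in T-bet+ cDC2s and 2.19 (SE 0.45, adjusted p = 0.013) in T-bet- cDC2s. In no subset did the tissues overlap. The T-bet+ call was lost without MLN T-bet+ cDC2 replicate 2 (adjusted p = 0.127), and the T-bet- call without either MLN T-bet- cDC2 library (adjusted p = 0.166 and 0.0566). Tlr1 went the other way in cDC1s and was 3.01-fold lower in spleen (log2 -1.59, SE 0.33, adjusted p = 0.00982), a call lost without spleen cDC1 replicate 1 or MLN cDC1 replicate 3 (adjusted p = 0.056 and 0.0524). Tlr2 was 3.56-fold higher in spleen than in MLN T-bet- cDC2s (log2 1.83, SE 0.39, adjusted p = 0.0151), without overlap, and lost its call without either MLN T-bet- cDC2 library (adjusted p = 0.195 and 0.0648). Ly86 was 1.59-fold higher in spleen than in MLN cDC1s (adjusted p = 0.0413), a call lost in 15 of 23 alternatives.

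Ly96 was lower in spleen than in MLN in each subset, with log2 fold changes of -1.22 in cDC1s (adjusted p = 0.0906), -2.15 in T-bet+ cDC2s (SE 0.50, adjusted p = 0.0284) and -1.63 in T-bet- cDC2s (adjusted p = 0.067). The call in T-bet+ cDC2s rested on MLN T-bet+ cDC2 replicate 2, without which the log2 fold change was -0.77 (adjusted p = 0.572). It was also lost without any one spleen T-bet+ cDC2 library (adjusted p = 0.0533 to 0.11). In all, the comparison of tissues called 3 members for cDC1s and 2 for each cDC2 subset, where 11.7%, 5.09% and 5.95% of 16795 genes were. Tissue and any difference in how the tissues were handled cannot be told apart. Neutrophil markers were higher in spleen than in MLN in each subset, with 0 of 6 called in cDC1s, 3 of 6 in T-bet+ and 4 of 6 in T-bet- cDC2s. Of the 10 monocyte and macrophage markers, 6, 8 and 5 had the higher mean in spleen, in the same order of subsets. Called higher in spleen were 2, 0 and 1 of them, and none was called lower. The part of both sets of markers in the Cd14 and Tlr2 levels was not tested. All 5 T cell markers had lower means in spleen than in MLN in each subset, with 3 called in cDC1s and 1 in each cDC2 subset, and their part in the Ly96 and Tlr1 levels was not tested.

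Ordered by mean normalized count, Tlr1 ran from 3298 in MLN T-bet- cDC2s through 3092 in MLN T-bet+ cDC2s and 2824 in spleen T-bet- cDC2s, which overlapped, to 1834 in spleen T-bet+ cDC2s, 455 in MLN cDC1s and 151 in spleen cDC1s. Cd14 ran from 8579 in spleen T-bet- cDC2s through 2066 in spleen cDC1s, 1876 in MLN T-bet- cDC2s, 932 in spleen T-bet+ cDC2s and 399 in MLN cDC1s to 125 in MLN T-bet+ cDC2s. Only spleen cDC1s and MLN T-bet- cDC2s overlapped as neighbours in that order. Ly86 was at 7917 in spleen T-bet- cDC2s and 7840 in MLN T-bet+ cDC2s, which overlapped, and at 2484 in MLN cDC1s, the lowest. For Tlr4, Tlr6 and Ly96 each neighbour in the order overlapped the next. Per length, the highest member was Cd14 in spleen T-bet- cDC2s (201 ± 67.3 RPKM) and in spleen cDC1s (48.5 ± 16.4), and Ly86 in spleen T-bet+ cDC2s (75.8 ± 5.24) and in all 3 MLN subsets (27.8 ± 4.19 in cDC1s, 87.8 ± 3.60 for T-bet+ and 70.9 ± 10.3 for T-bet- cDC2s, n = 3, 2 and 2). In spleen cDC1s Ly86 followed within the SD of Cd14, at 44.3 ± 5.51 RPKM, and in spleen T-bet+ cDC2s Tlr2 followed Ly86 within its own SD, at 67.1 ± 18.0 RPKM.

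A list of 41 further genes, from adaptors of the pathway to NF-kB and with some other partners, was read in the same tests and is called pathway genes here. Of these, 14 were called between spleen T-bet+ cDC2s and cDC1s, 8 higher and 6 lower, and 13 between spleen T-bet- cDC2s and cDC1s, 9 higher and 4 lower, where 18.2% and 15.9% of all genes were called. In MLN 40 were tested, and 5 were called in T-bet+ cDC2s against cDC1s, 4 of them higher, and 4 in T-bet- cDC2s against cDC1s, 3 of them higher, where 6.22% and 5.79% of all genes were. Ticam2, which encodes TRAM, the adaptor that links TLR4 to TRIF, was the largest called difference among adaptors in each of these. Its normalized counts were 33.9, 35.4 and 77.3 in spleen cDC1s, 753, 833 and 984 in T-bet+ cDC2s, and 1194, 731 and 1278 in T-bet- cDC2s. The log2 fold change against cDC1s was 4.14 in spleen T-bet+ and 4.45 in spleen T-bet- cDC2s (adjusted p = 0.000117 and 8.4e-05), and 4.43 and 3.58 in MLN (adjusted p = 0.000602 and 0.000827). Irak3, whose product inhibits the pathway, was called in spleen T-bet- cDC2s (log2 3.78, SE 0.87, adjusted p = 0.016, lost in 3 of 18 alternatives), where its mean was 271 normalized counts against 19.6 in cDC1s.

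Cd36, a scavenger receptor that assists TLR2 and TLR6, was lower in cDC2s than in cDC1s, where Tlr2 was higher. It had 11509, 16705 and 19712 normalized counts in spleen cDC1s, 176, 151 and 56.2 in T-bet+ cDC2s, and 2786, 828 and 1605 in T-bet- cDC2s. It fell in T-bet+ cDC2s against cDC1s by 6.96 on the log2 scale (SE 0.63, adjusted p = 6.9e-05), in T-bet- cDC2s against cDC1s by 3.20 (SE 0.53, adjusted p = 0.00274) and T-bet+ against T-bet- cDC2s gave -3.76 (SE 0.54, adjusted p = 0.00441). The only other pathway gene called between the spleen cDC2 subsets was Ticam1, which encodes TRIF (log2 -1.08, SE 0.25, adjusted p = 0.0387), and its call was lost in 11 of 18 alternatives. Nfkb1 and Syk, an NF-kB subunit and a kinase, were higher in both spleen cDC2 subsets than in cDC1s, Nfkb1 by 2.52 for T-bet+ and 2.16 for T-bet- cDC2s and Syk by 1.44 and 2.01 on the log2 scale. Tirap, the bridging adaptor of TLR2 and TLR4, and Hsp90b1, the chaperone that folds TLRs, were lower in spleen T-bet+ cDC2s than in cDC1s (log2 -1.95 and -1.77, adjusted p = 0.00875 and 0.00132). Ly75, listed among the other partners and not as a signalling gene, was lower in both spleen cDC2 subsets than in cDC1s (log2 -3.54 and -3.29). Lbp, which brings LPS to CD14, was called higher in both but stood at 0 in the 3 cDC1 libraries, at 7.80, 8.30 and 32.7 normalized counts in T-bet+ and at 29.6, 15.2 and 0.929 in T-bet- cDC2s, and its calls were lost in 10 and 12 of 16 alternatives. Itgam was called too, but encodes the CD11b of the gate. In MLN Chuk was lower in T-bet- cDC2s than in cDC1s (log2 -1.19, adjusted p = 0.026), a call lost in 6 of 17 alternatives. No pathway gene was called between the MLN cDC2 subsets by edgeR's quasi-likelihood test, with 4 at an unadjusted p under 0.05.

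Accessible chromatin at the 9 loci was compared in spleen, where a window was called if its adjusted p was under 0.01 and its log2 fold change lay beyond 0.5 in either direction. Of 107 windows, 26 were called between T-bet+ cDC2s and cDC1s, 21 of them more open in T-bet+ cDC2s and 5 less open. This is 24.3%, where 23.0% of all 166547 windows tested were called, 11.0% more and 12.0% less open. Between T-bet- cDC2s and cDC1s 17 windows were called, 14 more and 3 less open, which is 15.9% against 17.9% of all windows, 7.32% more and 10.6% less open. Between T-bet+ and T-bet- cDC2s 7 were called, 5 more and 2 less open, which is 6.54% against 6.28%, 3.92% more and 2.36% less open. In total the shares called at these loci were near those of all windows. By direction they were not, since against cDC1s most called windows at these loci were more open in cDC2s, while over all windows fewer were more open than less open. Windows of one locus are not independent of each other, and this split was not tested. The 34 promoter windows, within 2000 bases of a transcript start, held 3 of the 7, 5 of the 26 and 1 of the 17 calls.

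**Figure D3:**
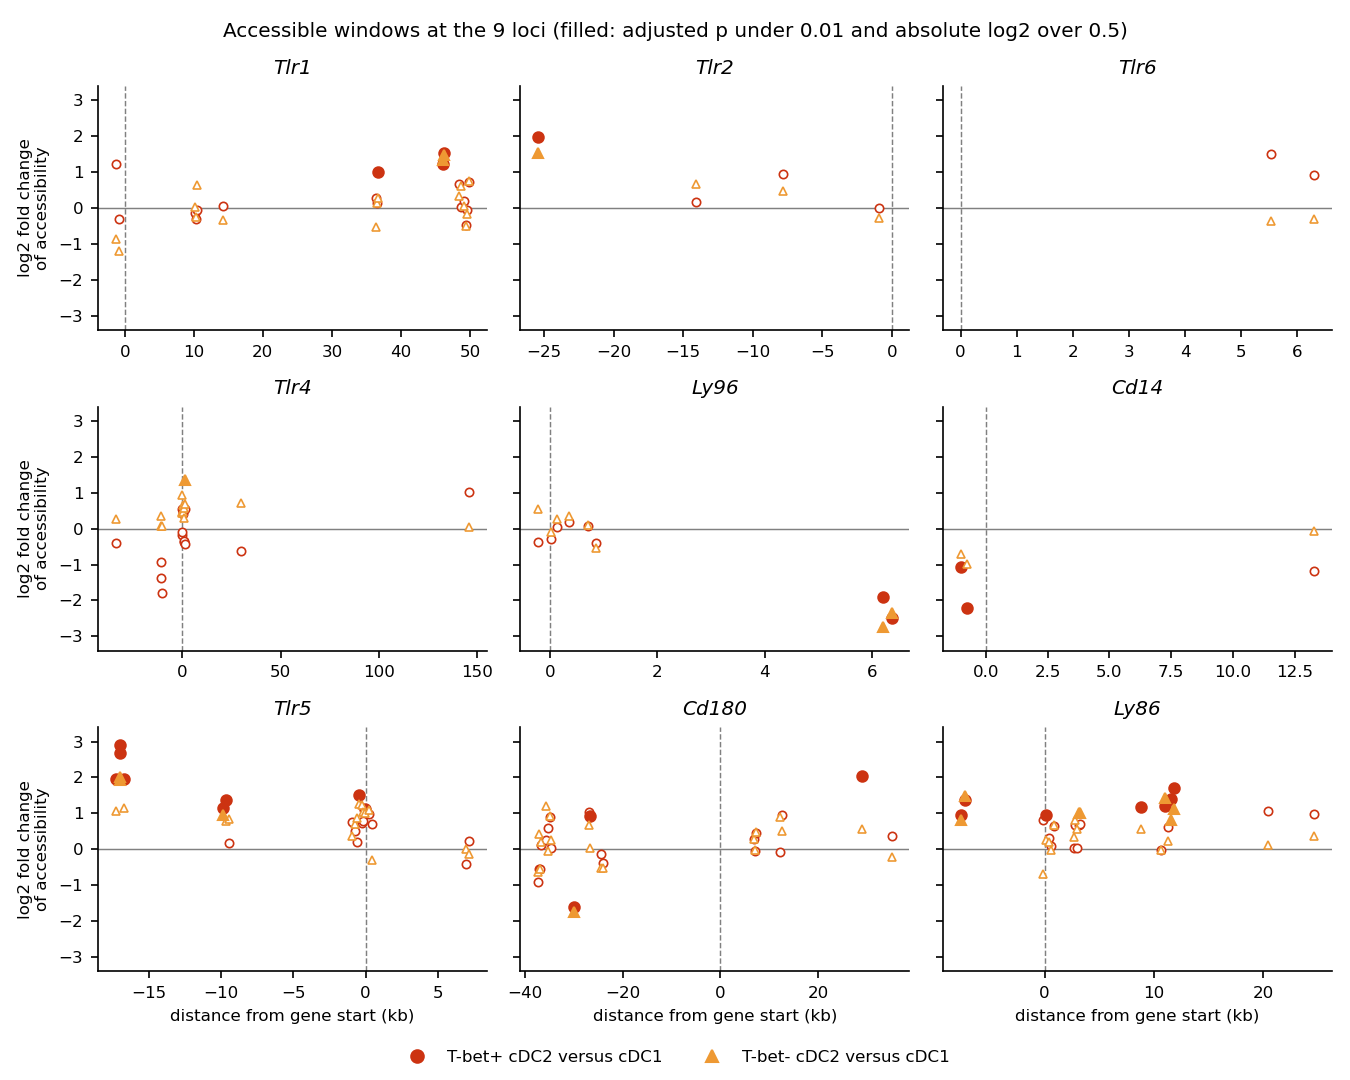
Log2 fold change of accessibility of each tested window at the 9 loci, plotted against its distance in kb from the gene start, with a colour for each cDC2 subset against cDC1s and filled symbols for called windows. At Ly86 and Tlr5 the called windows lie above 0 (7 and 8 windows for T-bet+ cDC2s against cDC1s), and at Ly96 the 2 called windows lie below 0.

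At Tlr5, 8 of 18 windows were more open in T-bet+ cDC2s and 3 of 18 in T-bet- cDC2s than in cDC1s, and none was less open. The window 17006 bases before its start, printed above with its 2 GAGGAA matches, had 27.1 and 27.5 normalized counts in cDC1s, 210 and 197 in T-bet+ cDC2s and 101 and 120 in T-bet- cDC2s. The 3 subsets did not overlap. Against cDC1s the log2 fold change was 2.89 in T-bet+ (SE 0.26, adjusted p = 8.1e-15) and 2.01 in T-bet- cDC2s (SE 0.27, adjusted p = 1.2e-08). It was also higher in T-bet+ than T-bet- cDC2s (log2 0.88, SE 0.22, adjusted p = 0.0028), a call lost in 4 alternatives, while Tlr5 RNA had the opposite sign in that comparison without passing the test. Of its 9 promoter windows 2 were called more open in T-bet+ cDC2s than in cDC1s, and none in the other comparisons. Summed over these 9 windows, normalized counts were 243 and 206 in cDC1s, 381 and 403 in T-bet+ cDC2s and 363 and 330 in T-bet- cDC2s, with both cDC2 subsets above cDC1s. The most open of them, 931 bases before the start, was not called.

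At Tlr2, 4 windows were tested and the one 25424 bases before the start was called in both comparisons with cDC1s. It had 26 and 27.5 normalized counts in cDC1s, 127 and 84.3 in T-bet+ cDC2s and 101 and 55 in T-bet- cDC2s. The cDC2 subsets overlapped and both lay above cDC1s (log2 1.97, SE 0.31, adjusted p = 2.8e-07 and log2 1.52, SE 0.32, adjusted p = 0.00012). The Tlr2 promoter window ranged from 48.8 to 62.5 normalized counts over all 6 libraries and was called in no comparison. At Tlr1, the window 46307 bases past the start had 24 and 28.6 normalized counts in cDC1s, 80.1 and 73.3 in T-bet+ cDC2s and 62.7 and 82.5 in T-bet- cDC2s, with log2 fold changes over cDC1s of 1.54 and 1.47 (adjusted p = 4.7e-05 and 0.00016). Neither of the 2 Tlr1 promoter windows was called against cDC1s. The more open one, 870 bases before the start, had 21.9 and 46.9 normalized counts in cDC1s. It had 31.5 and 23.8 in T-bet+ and 16.2 and 13.3 in T-bet- cDC2s, the latter below cDC1s while Tlr1 RNA was higher.

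Tlr1 and Tlr6 each had 1 window that was more open in T-bet+ cDC2s than in the T-bet- subset. The Tlr1 window, 1341 bases before the start, had 22.9 and 23.8 normalized counts in T-bet+ cDC2s, against 6.49 and 4.44 in T-bet- cDC2s and 7.29 and 12.6 in cDC1s (log2 2.09, SE 0.53, adjusted p = 0.0039 between the cDC2 subsets). The Tlr6 window, in an exon 5535 bases past the start, had 25.7 and 21.1 in T-bet+ cDC2s, against 7.57 and 5.33 in T-bet- cDC2s, and 9.37 and 6.87 in cDC1s (log2 1.86, SE 0.52, adjusted p = 0.0092). T-bet+ cDC2s stood alone in both, at counts near the median of all tested windows, 23.2. The RNA of neither gene was higher in spleen T-bet+ cDC2s than in spleen T-bet- cDC2s. Both calls depended on the analysis and were lost in 4 and 7 alternatives.

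**Figure D4:**
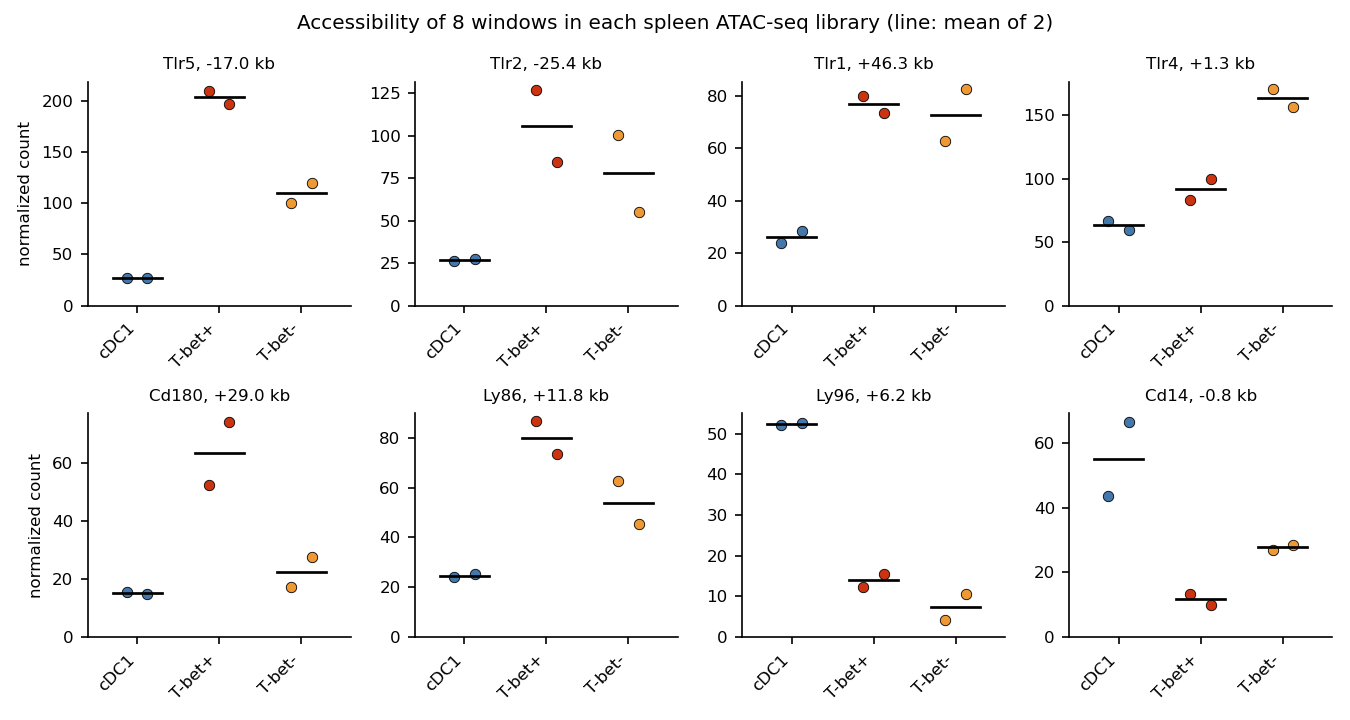
Normalized counts of 8 windows in each of the 6 spleen ATAC-seq libraries, as points with a line at the mean of 2, and each panel titled with the gene and the distance from its start in kb. The Tlr5 window at 17.0 kb before the start steps from 27.1 and 27.5 in cDC1s to 101 and 120 in T-bet- and 197 and 210 in T-bet+ cDC2s.

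For the LPS receptor, accessibility did not follow RNA in one direction. At Tlr4 the window 1272 bases past the start had 66.7 and 59.5 normalized counts in cDC1s, 83 and 99.9 in T-bet+ cDC2s and 171 and 156 in T-bet- cDC2s. The subsets did not overlap, and T-bet- cDC2s were above cDC1s (log2 1.37, SE 0.24, adjusted p = 4.7e-06) and above T-bet+ cDC2s (T-bet+ minus T-bet- log2 -0.83, SE 0.23, adjusted p = 0.0074), the latter lost in 6 alternatives. The window 87 bases past the start, the most open at Tlr4, was not called. At Cd14, on chromosome 18, the promoter window 752 bases before the start had 43.7 and 66.4 normalized counts in cDC1s, 13.4 and 10.1 in T-bet+ cDC2s and 27 and 28.4 in T-bet- cDC2s. It was less open in T-bet+ cDC2s than in cDC1s (log2 -2.22, SE 0.39, adjusted p = 4.5e-06), as was the window 1028 bases before the start (log2 -1.07, SE 0.30, adjusted p = 0.003). No Cd14 window was called between T-bet+ and T-bet- cDC2s or between T-bet- cDC2s and cDC1s, the comparisons in which Cd14 RNA differed most in spleen.

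At Ly96 the 2 called windows lay next to each other in an intron and were less open in both cDC2 subsets. The window 6201 bases past the start had 52.1 and 52.7 normalized counts in cDC1s, 12.4 and 15.6 in T-bet+ cDC2s and 4.32 and 10.7 in T-bet- cDC2s (log2 -1.89, SE 0.40, adjusted p = 7.9e-05 and log2 -2.74, SE 0.44, adjusted p = 7.1e-07). Ly96 RNA in spleen did not differ between cDC1s and cDC2s by the test, and the Ly96 promoter window, at 293 to 400 normalized counts, was not called. At Cd180 the intronic window 28973 bases past the start had 15.6 and 14.9 normalized counts in cDC1s, 52.5 and 74.2 in T-bet+ cDC2s and 17.3 and 27.5 in T-bet- cDC2s. It was more open in T-bet+ cDC2s than in T-bet- cDC2s (log2 1.48, SE 0.35, adjusted p = 0.0016) and cDC1s (log2 2.05, SE 0.38, adjusted p = 8.4e-06). A window 29877 bases before Cd180 was less open in both cDC2 subsets than in cDC1s (log2 -1.61 and -1.76).

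Ly86 had the same number of windows called in both comparisons with cDC1s, 7 of 20 each, all more open in cDC2s. The intronic window 11800 bases past the start had 24 and 25.2 normalized counts in cDC1s, 86.8 and 73.3 in T-bet+ cDC2s and 62.7 and 45.3 in T-bet- cDC2s (log2 1.70, adjusted p = 1.3e-05 and log2 1.12, adjusted p = 0.0072). Its promoter window 99 bases past the start had 67.7 and 72.1 in cDC1s, 142 and 128 in T-bet+ cDC2s and 82.1 and 85.2 in T-bet- cDC2s, and was called for T-bet+ cDC2s against cDC1s (log2 0.95, SE 0.24, adjusted p = 0.0011). With 2 ATAC libraries per subset, the spread was estimated over all 6 libraries.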

How the data were processed

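RNA-seq (SMART-Seq) and ATAC-seq libraries were grouped by their labels, and the RFP+ label was read as T-bet+. One sentence of the study's methods gives the opposite sign, and Tbx21 was high in the libraries labelled positive. The authors aligned RNA reads to mm10 with HISAT2 2.1.0 and deposited unnormalized counts of unique reads per gene from Rsubread on GENCODE annotation. For ATAC-seq they aligned with Bowtie2 2.2.5, shifted read ends for the transposase, called peaks on all replicates with MACS2 2.1.1.20160309, and deposited counts per peak and per 150-base summit window, with the summit −log10 p of the caller. Sequencing machine per library is not given in the sources used here.

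Members and lists were chosen with earlier results of these data known. Counts were tested with edgeR 4.0.16 (quasi-likelihood, TMM, filterByExpr) in R 4.3.3, separately for spleen, MLN, both tissues together and ATAC-seq, with p-values adjusted over all features. Normalized counts are counts scaled by effective library size, over all 16 RNA or all 6 ATAC libraries, and RPKM values divide by exon length. Each window was given its closest gene within 50 kb on GENCODE annotation. The scripts were tested on simulated data. Tools for tables and plots were Python 3.11.15, pandas 2.3.3 and matplotlib 3.10.9.

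Named were all 9 members, at most 8 called pathway genes per comparison by absolute log2 fold change, the 3 genes most alike to each member, and per member the called window with the largest change and the promoter window with the highest mean. Syk in spleen T-bet+ cDC2s lay outside this rule and was chosen after its value was seen. The class of a library was set by whether the deviations of its log2 levels from the tissue mean correlated above 0.1 with GC content. That content was taken at the most GC-rich stretch of each gene's longest transcript. Alternatives were DESeq2 1.42.0, its size factors, other filters and thresholds, a replicate block, the library class as a term, fits on the compared subsets alone, whole peaks, and leaving out each library.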

Additional observations from a re-analysis of the deposited data

How the results depend on the processing

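Of 1791 recomputed member fold changes, 1622 kept direction and side of the threshold, 88 lost a call, 38 gained one and 43 changed sign. No window fold change of 316 changed sign, and 48 lost a call. Of 703 recomputed fold changes of called pathway genes, 578 kept their call and 125 lost it. The cause of each change below was not tested.

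Members called between spleen T-bet+ and T-bet- cDC2s numbered 1 at an adjusted p under 0.01, with DESeq2 size factors, at a mean of at least 50 and with the replicate block. At an adjusted p under 0.01 there were 3 for spleen T-bet+ cDC2s against cDC1s, 2 for each MLN cDC2 subset against cDC1s, and 1 and 0 between tissues in T-bet+ and T-bet- cDC2s. Between the MLN cDC2 subsets there was 1 with DESeq2, with no filter, with the block by the number in the library name and with the newer quasi-dispersion of edgeR. DESeq2 called 4 between tissues in T-bet- cDC2s. Leaving out 1 library gave 1 to 2, 3 to 5 and 5 to 7 in spleen, 0, 2 to 4 and 1 to 5 in MLN, and 1 to 3, 0 to 2 and 0 to 3 for spleen over MLN (cDC1s first, then the T-bet+ and last the T-bet- subset).

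Windows called between T-bet+ and T-bet- cDC2s numbered 1 with DESeq2, 11 with the newer quasi-dispersion, 3 in promoters and 17 at an adjusted p under 0.05 with no minimum fold. For T-bet+ cDC2s against cDC1s there were 16 with DESeq2, 16 over whole peaks and 5 in promoters. For T-bet- cDC2s against cDC1s there were 9, 10 and 1, and 29 at an adjusted p under 0.05. Leaving out 1 library gave 1 to 8, 15 to 27 and 10 to 18. Over all windows, DESeq2 called 4844 of 115853 between the cDC2 subsets, 23964 of 164155 and 17257 of 150354 over cDC1s, and the newer quasi-dispersion 11784 of 166547 between the cDC2 subsets.

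Same-numbered libraries did not all deviate together (r of their deviations from -0.74 to 0.43 in spleen and -0.21 to 0.11 in ATAC-seq). In MLN r was 0.658 and 0.622 for cDC1 with T-bet+ cDC2 libraries and as low as -0.14 for other pairs, and by the number in the library name 4 of 5 pairs lay above 0.1 and 1 at -0.014. No label says what the numbers share, so they were not taken as pairs. With the replicate block, members called were 2 for each MLN cDC2 subset against cDC1s. Replicates are nested in tissue, so between tissues this fit sets a single replicate number of spleen against a single one of MLN. It does not measure the mean difference between tissues. There it called 0 members in each subset, and Cd14 in cDC1s was 1.61 (adjusted p = 0.284). All genes called with the block were 356 against 774 between the spleen cDC2 subsets, and 539 against 952 and 515 against 885 for MLN cDC2s over cDC1s. Between tissues, under the limit just given, they were 44, 6 and 47 against 1961, 855 and 1000. The block by library name moved MLN calls the other way, to 130 from 0 between the cDC2 subsets and to 2440 and 2477 over cDC1s. A crossed pairing, chosen like the newer quasi-dispersion after seeing the data, called 131 genes and 1 member between the MLN cDC2 subsets and 12 member windows in ATAC-seq.

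DESeq2 called 1412 genes between the spleen cDC2 subsets, 2032 and 1743 for MLN cDC2s over cDC1s, and 3513, 2801 and 2243 between tissues. With no filter there were 1521, 2257 and 2012, and 3397, 2875 and 2435.

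Uncalled log2 fold changes that changed sign were Ly86 between the spleen cDC2 subsets (0.022 with the library class) and Tlr4 in spleen T-bet- cDC2s over cDC1s (-0.0093 with DESeq2, -0.0054 with its size factors, -0.17 with the block). Between the MLN cDC2 subsets they were Tlr1 (0.25 with the block by name, 0.017 with the class) and Tlr4 (0.34 with the block, 0.21 on 4 libraries, 0.20 crossed). For MLN T-bet+ cDC2s over cDC1s they were Tlr4 (-0.15 with the block by name, -1.01 with the class) and Cd180 (-0.13 with the class). Between tissues the block does not compare tissue means. It gave 0.075 for Tlr6 in cDC1s, -0.18 for Tlr2 in T-bet+ cDC2s, and 0.056 for Tlr1 and -0.045 for Cd180 in T-bet- cDC2s.

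Leaving out 1 library changed the sign of other uncalled values. In spleen these were Cd180 (-0.31 to 0.15, T-bet+ over cDC1), Tlr4 (-0.64 to 0.54) and Ly96 (-0.0063 to 0.55, T-bet- over cDC1). Between the MLN cDC2 subsets they were Tlr1 (-0.30 to 0.091), Tlr4 (-1.28 to 1.81), Tlr5 (-0.50 to 0.35), Tlr6 (-0.0016 to 0.60) and Ly96 (-1.70 to 0.41). Over MLN cDC1s they were Tlr4 (-0.056 to 1.35) and Ly96 (-0.93 to 1.14) in T-bet+ and Tlr4 (-1.48 to 1.81) in T-bet- cDC2s. Between tissues they were Tlr2 (-0.20 to 0.82) and Cd180 (-0.23 to 0.18) in T-bet+ cDC2s, and Tlr4 (-0.88 to 2.15), Tlr6 (-0.095 to 0.45) and Cd180 (-0.027 to 0.28) in T-bet- cDC2s. In the test between tissues of the cDC2 difference they were Ly96 (-1.22 to 0.89) and Cd180 (-0.34 to 0.12).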

Other observations

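The genes whose log2 levels followed each member most closely over the 16 RNA libraries were sought among 11081 genes, as a description with no test. The libraries are shared by all genes and fall into subsets and tissues, and r was not computed within them. Closest to Tlr1 were Ddx58 (r = 0.983), Zeb2 (0.977) and Tmem173 (0.973). Closest to Tlr5 were Fyb (0.984), Gngt2 (0.978) and Fgr (0.978), and closest to Tlr2 were Rap1a (0.966), Tspan14 (0.960) and Arl6ip5 (0.957). Cd14 was followed by Slc19a1 (0.946), Tgfbi (0.944) and Tom1 (0.943), and Ly86 by Siglece (0.963), Gapt (0.960) and Pilrb1 (0.956). Ly96 was followed by Rnd1 (0.960), Mir155hg (0.954) and Tmcc3 (0.946), and Cd180 by Kif23 (0.941), Hgfac (0.911) and Mical2 (0.886). For Tlr6 the closest were RP23-284F8.1 (0.916), Rassf4 (0.900) and Mfap1b (0.894). Tlr4, the member with the widest spread within subsets, had the lowest values, with Pus7l (0.841), Tmem186 (0.829) and Tbc1d31 (0.807).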
